A study of Mus musculus with 6 samples.

Results

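The folding and disposal machinery of the endoplasmic reticulum (ER) was examined in mouse embryonic fibroblasts (MEFs) with and without an intact Kansl1 gene, which encodes the scaffold subunit of the NSL histone acetyltransferase complex. The genes were taken by symbol from a list of 45 ER chaperones, folding enzymes, degradation factors and stress sensors, and all 45 were found among the 26898 genes of the expression table. All 45 were also among the 14799 genes tested, those with a WT or KO mean of 1 TPM or more (TPM is a transcript count corrected for gene length and expressed relative to a fixed sum per library).

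RNA sequencing had been performed on primary MEFs of the C57BL/6 strain at passage 3, isolated from mid-gestation embryos and described as coming from separate mice. The WT group (replicates 4, 5 and 8) carried Kansl1 fl/fl, that is, both alleles flanked by recombination sites, and no Cre. The KO group (replicates 3, 7 and 10) carried Kansl1 fl/fl/CAG-cre, in which a broadly active promoter drives a Cre recombinase that tamoxifen switches on. Both groups received 1 μM tamoxifen for 48 h, so the drug is shared and the groups differ in Cre as well as in Kansl1; effects of Cre and of Kansl1 loss cannot be told apart. Per the labels the medium held fetal bovine serum at a lower content than the study's general methods give for MEFs. In bulk RNA, fewer cells of a type and less RNA per cell cannot be told apart either.

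Proteins that enter the secretory pathway fold in the ER lumen, where HSP70 and HSP90 chaperones hold unfolded chains, lectins retain glycoproteins, disulfide isomerases form and reshuffle disulfide bonds, and prolyl isomerases speed turns of the backbone. Chains that fail to fold are recognized by their trimmed sugars, passed through a membrane-embedded ubiquitin ligase and degraded in the cytosol, a route called ER-associated degradation (ERAD). The sensors ATF6 and IRE1, the latter through splicing of Xbp1 RNA, raise transcription of much of this machinery when unfolded proteins accumulate, and fibroblasts depend on it because they secrete large amounts of collagen and other matrix.

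Kansl1 itself checked the labels. In WT 4, 5 and 8 it read 28.5, 26.7 and 24.4 TPM, whereas KO 3, 7 and 10 gave 13.7, 15.8 and 14.4 TPM. Every KO sample was below every WT sample, and KO samples kept 55.1% of the WT level (log2 fold change -0.82, SE 0.11, limma adjusted p = 0.000859). The table holds 1 value per gene, so reads from exons between the recombination sites were not separated from the rest. Between 17654338 (KO 3) and 27716119 (KO 7) reads per sample could be assigned to genes. All 10 fibroblast markers were detected at a mean of 1 TPM or more, summing to between 10280 and 14860 TPM in WT and between 11010 and 14440 TPM in KO. Macrophage markers summed to between 40.02 and 48.9 TPM in WT and between 87.7 and 175.6 TPM in KO. Lyz2 was the largest part of these sums, with means of 22.5 TPM in WT and 73.6 TPM in KO. It was the only marker of this list to pass the thresholds used below (log2 fold change 1.59, limma adjusted p = 0.00142). All 8 tested macrophage markers of the 10 were higher in every KO sample, whereas the other 2, the defining leukocyte gene Ptprc and Aif1, stayed under 1 TPM in both groups. The part of these differences in the results below was not tested.

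Of the 45 ER genes, 6 were lower in KO MEFs and 0 were higher. A gene was called at an adjusted p below 0.005 and a log2 fold change beyond 0.5 in either direction. The genes called lower were Dnajb11 and Sdf2l1 (chaperone partners of BiP), Erp44 (a thioredoxin-like retention factor), Creld2 (a secreted stress-responsive protein) and the ERAD factors Edem2 and Os9. Over all genes tested, 10.7% were called in either direction, 9.03% lower and 1.64% higher. The 6 members amount to 13.3% of the 45, which is near the share over all genes, so the count alone sets nothing apart. At an unadjusted p under 0.05, limma gave 25 members, 20 of them lower (44.4% of the members, against 27.2% of all genes tested) and 5 higher (against 12.2% of all genes tested). Every member had a WT mean of 11.36 TPM or more, whereas the background held genes down to 1 TPM, whose changes the log2(TPM + 1) scale understates. With a filter of 10 TPM, 14.1% of all genes were called lower and 4.17% higher. The shares of all genes tested may therefore overstate how far the members stand apart.

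The wider distribution of the members was shifted downward by a small amount. The median log2 fold change of the 45 was -0.24, against -0.07 over all genes tested, and 32 were negative (71.1%, against 57.4% of all genes tested) and 13 positive. In 21 members every KO sample lay below every WT sample, and in 6 every KO sample lay above. Non-overlapping groups were found in 43.2% of all genes tested, with KO below WT in 29.9% and above in 13.3%. The corresponding shares of the members were 46.7% and 13.3%. This background too held genes down to 1 TPM, below the WT mean of any member.

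A group of 4 genes stood below the rest in size of change. Dnajb11, Sdf2l1, Edem2 and Os9 had log2 fold changes between -1.12 and -1.07, and the next most negative value among the members was that of Erp44 at -0.63. The most positive was that of Fkbp9 at 0.36. Standard errors of the members ran from 0.10 to 0.17.

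**Figure D1:**
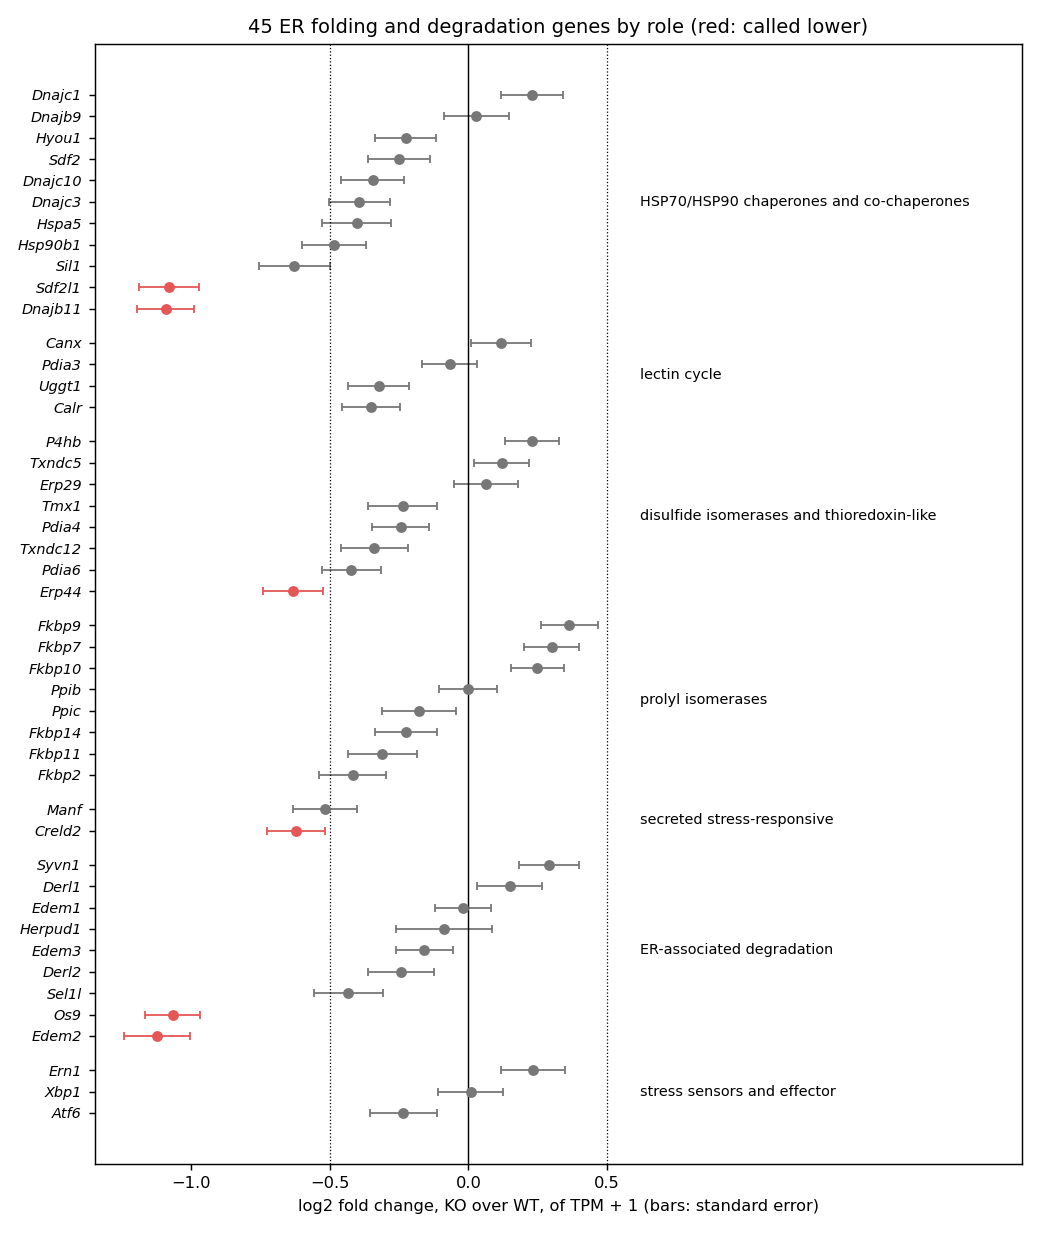
Log2 fold change of KO over WT, on the log2(TPM + 1) scale, for the 45 members grouped by role. Points are fold changes from limma (n = 3 per group), bars are standard errors, dotted lines mark the fold change threshold of 0.5 in each direction and red marks the 6 members called lower, of which 4 lie below -1.

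Among the 11 HSP70 and HSP90 chaperones and their co-chaperones, 2 were lower, 0 were higher and 9 were not called. The 2 amount to 18.2%, against 9.03% called lower over all genes tested, and so small a count is given as a description. Dnajb11 (ERdj3), a J-domain protein that binds unfolded chains and hands them to BiP, lies on chromosome 16 (mm10 22857845 to 22879634, plus strand). It read 112.1, 109.7 and 101.0 TPM in WT MEFs, compared with 45.0, 54.2 and 50.7 TPM in KO MEFs. Its groups were far apart relative to their spread, with means of 108 ± 5.87 (SD, n = 3) and 49.99 ± 4.66 TPM (log2 fold change -1.09, SE 0.10, limma adjusted p = 0.00024).

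Sdf2l1, a small luminal protein that forms a complex with Dnajb11, lies on the same chromosome (17130138 to 17132383, minus strand). It read 50.6, 52.7 and 48.7 TPM in WT MEFs, compared with 20.7, 25.1 and 24.6 TPM in KO MEFs. KO samples thus held 46.3% of the WT mean, almost the same share as the 46.5% of Dnajb11 (log2 fold change -1.08, SE 0.11, limma adjusted p = 0.000275). Its paralog Sdf2, also a Dnajb11 partner, had means of 64.8 ± 3.73 TPM in WT and 54.5 ± 6.41 TPM in KO and was not called (log2 fold change -0.25, limma adjusted p = 0.129).

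Hspa5, which encodes BiP, the HSP70 of the ER lumen, was the most abundant gene of the group at 893.5, 913 and 808 TPM in WT MEFs, compared with 555, 744 and 689.6 TPM in KO MEFs. Each KO sample was below each WT sample, yet the change was smaller than the threshold (log2 fold change -0.40, SE 0.12, limma adjusted p = 0.0367). Hsp90b1 (GRP94), the ER HSP90, gave a mean of 481 ± 44.5 TPM in WT and 343.5 ± 37.0 TPM in KO, with a log2 fold change of -0.49 just inside the threshold (limma adjusted p = 0.0124). Sil1, a nucleotide exchange factor that releases clients from BiP, had means of 14.1 and 8.82 TPM and passed the fold threshold but not the adjusted p (log2 fold change -0.63, limma adjusted p = 0.00592).

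The remaining members of the group differed less. Hyou1 (GRP170), the other exchange factor of BiP, had a log2 fold change of -0.23. Dnajc3, a BiP cofactor, and Dnajc10, a disulfide reductase with a J domain, had -0.39 and -0.35, with KO below WT in every sample. Dnajb9 (ERdj4), which represses IRE1, stood at 0.03, and the membrane-bound Dnajc1 at 0.23. Summed over the 11 genes, WT samples held between 1803 and 2042 TPM and KO samples between 1250 and 1597 TPM, so that KO samples held 74.1% of the WT mean. Hspa5 and Hsp90b1, neither of them called, made up most of that sum in both groups.

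**Figure D2:**
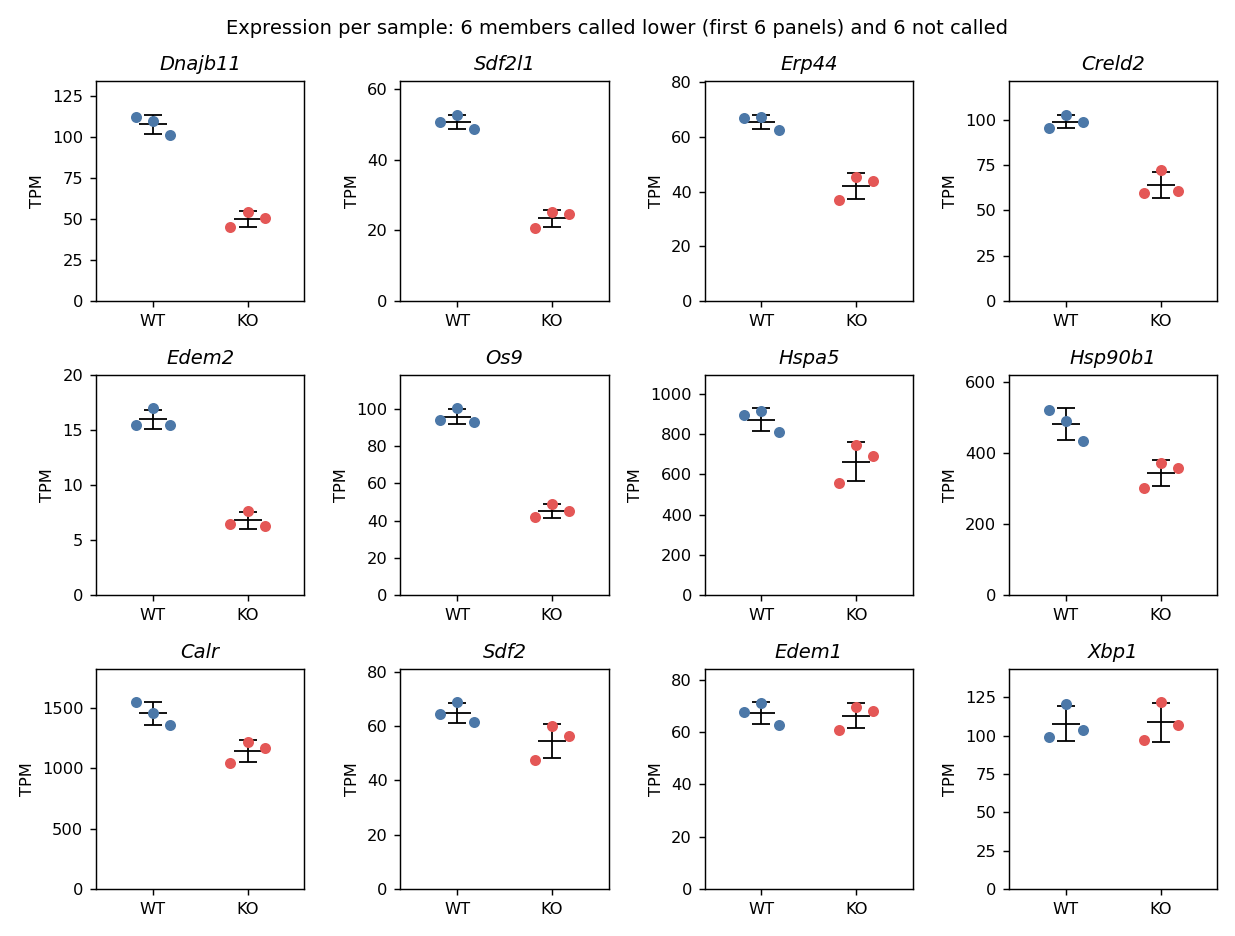
TPM in each sample for the 6 members called lower (Dnajb11, Sdf2l1, Erp44, Creld2, Edem2 and Os9) and for 6 that were not called. Points are samples (WT blue, replicates 4, 5, 8 from left to right; KO red, replicates 3, 7, 10), black lines are the mean and SD of 3 samples, and every axis starts at 0; the groups of Edem1 and Xbp1 overlap, and those of the other 10 genes do not.

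The lectin cycle, in which calreticulin and calnexin bind glycoproteins with a single glucose, had 0 of 4 members called. With 10.7% of all genes tested called in either direction, that count sets nothing apart. Calr, the soluble lectin, had the highest WT mean of the 45 members (P4hb had the highest in KO), at 1548, 1459 and 1362 TPM in WT MEFs, compared with 1041, 1218 and 1171 TPM in KO MEFs. KO samples were lower without overlap, but the change missed both thresholds (log2 fold change -0.35, SE 0.10, limma adjusted p = 0.0327). Canx, its membrane-bound counterpart, had means of 536 ± 55.4 TPM in WT and 580.4 ± 39.3 TPM in KO, and the groups overlapped. Uggt1, the folding sensor that adds the glucose back, had a log2 fold change of -0.32 (limma adjusted p = 0.0539), and Pdia3 (ERp57), the disulfide isomerase that both lectins recruit, had -0.07.

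Of the 8 disulfide isomerases and thioredoxin-like proteins, 1 was lower (12.5%, near the 9.03% called lower over all genes tested). Erp44, on chromosome 4 (48193323 to 48279558, minus strand), retrieves oxidases and unassembled clients from post-ER compartments. It read 67.0, 67.1 and 62.6 TPM in WT MEFs, compared with 36.8, 45.5 and 43.8 TPM in KO MEFs. KO samples held 64.1% of the WT mean (log2 fold change -0.63, SE 0.11, limma adjusted p = 0.0026). The call was lost without any 1 of the 6 samples, with adjusted p between 0.00505 (without KO 7) and 0.0119 (without WT 5), while the log2 fold change stayed between -0.69 and -0.54.

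P4hb, the founding protein disulfide isomerase and a subunit of collagen prolyl 4-hydroxylase, was the most abundant of the class and lay on the other side of 0. It read 1110, 1202 and 1096 TPM in WT MEFs, compared with 1238, 1400 and 1362 TPM in KO MEFs. All KO samples were above all WT samples, but the change was small (log2 fold change 0.23, SE 0.10, limma adjusted p = 0.112). Pdia6 had a log2 fold change of -0.42 with non-overlapping groups (limma adjusted p = 0.0166). Pdia4 had -0.25, Txndc12 -0.34 and the membrane-anchored Tmx1 -0.24, whereas Txndc5 had 0.12 and Erp29, a redox-inactive relative, 0.06. The summed level of the class was between 2208 and 2440 TPM in WT and between 2158 and 2498 TPM in KO.

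None of the 8 prolyl isomerases was called in either direction, where 10.7% of all genes tested were. By limma, 5 had an unadjusted p under 0.05 (3 higher and 2 lower), where 39.4% of all genes tested were under it. Fkbp9 was the most abundant and read 358, 361 and 309 TPM in WT MEFs, compared with 405.5, 464 and 454 TPM in KO MEFs. It had the most positive value of the 45 members and was the only positive one with an adjusted p under 0.05 (log2 fold change 0.36, SE 0.10, limma adjusted p = 0.0276). Fkbp7 and Fkbp10, the latter a chaperone of type I collagen, were likewise above WT in every KO sample, with log2 fold changes of 0.30 and 0.25. Fkbp2 (-0.42) and Fkbp11 (-0.31) were below WT in every KO sample, and Ppib, a cyclophilin that acts on procollagen, had equal means of 66.0 TPM. Ppic (-0.18) and Fkbp14 (-0.22) overlapped between the groups.

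Both secreted stress-responsive proteins were below WT in every KO sample, as were 29.9% of all genes tested. Of the 2, 1 was called, where 9.03% of all genes tested were called lower, and a count over 2 genes sets nothing apart. Creld2, on chromosome 15 (88819646 to 88826683, plus strand), read 95.3, 103 and 98.7 TPM in WT MEFs, compared with 59.4, 72.2 and 60.7 TPM in KO MEFs. Its KO mean was 64.8% of the WT mean (log2 fold change -0.62, SE 0.10, limma adjusted p = 0.00247). The call was lost when WT 5, WT 8, KO 3 or KO 10 was left out, with adjusted p values of 0.0122, 0.00792, 0.0101 and 0.0149. Manf, a trophic factor held in the ER by BiP, had means of 77.4 ± 8.18 and 53.8 ± 5.00 TPM and passed only the fold threshold (log2 fold change -0.52, limma adjusted p = 0.00913).

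Of the 9 ERAD members, 2 were lower and 0 higher, where 9.03% of all genes tested were called lower and 1.64% higher. This small count is given as a description. Closely related genes differed in their change. Edem2 starts the trimming of mannose from misfolded glycoproteins and lies on chromosome 2 (155701677 to 155729475, minus strand). It read 15.47, 16.96 and 15.47 TPM in WT MEFs, compared with 6.43, 7.66 and 6.31 TPM in KO MEFs. At 42.6% of the WT mean it had the lowest proportion of the 45 (log2 fold change -1.12, SE 0.12, limma adjusted p = 0.000344). It was also the member with the fewest reads in any sample, at 162.

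Edem1 and Edem3, which carry the trimming further, did not show this. Edem1 had means of 67.2 ± 4.20 TPM in WT and 66.3 ± 4.70 TPM in KO (log2 fold change -0.02, limma adjusted p = 0.906). Edem3 had means of 45.4 ± 2.29 and 40.6 ± 3.44 TPM (log2 fold change -0.16, limma adjusted p = 0.283). In both genes the samples of the 2 groups overlapped.

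Os9 encodes a lectin that reads the trimmed sugar and delivers the client to the ligase, and lies on chromosome 10 (127095650 to 127121131, minus strand). It read 93.8, 100.2 and 92.9 TPM in WT MEFs, compared with 41.7, 49.0 and 44.9 TPM in KO MEFs. The decrease was of the same size as for Dnajb11 (log2 fold change -1.07, SE 0.10, limma adjusted p = 0.000222). Erlec1, the other lectin known for this step, is no member of the 45 and read between 28.9 and 33.5 TPM in WT and between 28.7 and 31.6 TPM in KO.

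No gene of the ligase complex and its channel was called, where 10.7% of all genes tested were called in either direction. Sel1l, the adaptor that receives clients, read 58.1, 61.5 and 55.1 TPM in WT MEFs, compared with 36.0, 49.2 and 44.3 TPM in KO MEFs, below WT in every sample but within the threshold (log2 fold change -0.43, SE 0.13, limma adjusted p = 0.0292). Syvn1 (HRD1), the ubiquitin ligase it pairs with, had means of 42.1 ± 3.08 and 51.8 ± 4.64 TPM, above WT in every KO sample (log2 fold change 0.29, limma adjusted p = 0.0739). Derl1, a channel component and the most abundant of the class, read 91.1, 112 and 99.5 TPM in WT MEFs, compared with 98.2, 122 and 115.5 TPM in KO MEFs, with overlap. Derl2 had a log2 fold change of -0.24 and Herpud1, which assembles the complex, -0.09 with the widest standard error of the members (0.17).

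The 3 stress sensors and effectors had overlapping groups, where 43.2% of all genes tested had groups that did not overlap. Xbp1, whose protein drives ERAD genes after its RNA is spliced, read 99.2, 120.5 and 104 TPM in WT MEFs, compared with 96.9, 122 and 107 TPM in KO MEFs, with a log2 fold change of 0.01. Atf6 read 30.9, 29.2 and 26.4 TPM in WT MEFs, compared with 21.1, 27.3 and 24.9 TPM in KO MEFs (log2 fold change -0.23, SE 0.12, limma adjusted p = 0.185). Ern1, which encodes IRE1 and had the lowest WT mean of the 45 members (Edem2 had the lowest in KO), read 12.2, 11.2 and 10.8 TPM in WT MEFs, compared with 12.1, 14.4 and 14.1 TPM in KO MEFs (log2 fold change 0.23, SE 0.12, limma adjusted p = 0.168). Levels per gene do not separate spliced from unspliced Xbp1, nor cleaved from full-length ATF6 protein.

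Level and change were then set side by side. The 6 genes called lower had WT means between 15.96 and 107.6 TPM. Of the 11 members above 300 TPM in WT, a level chosen after the values were seen, 0 were called, which at a background of 9.03% called lower sets nothing apart. Summed over the 45 members, WT samples held 9524, 9588 and 8677 TPM and KO samples 7639, 9066 and 8632 TPM. The KO mean was 91.2% of the WT mean, and the ranges overlapped. Few abundant genes, Calr, P4hb, Pdia3, Hspa5, Canx and Hsp90b1 first among them, made up most of that sum.

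**Figure D3:**
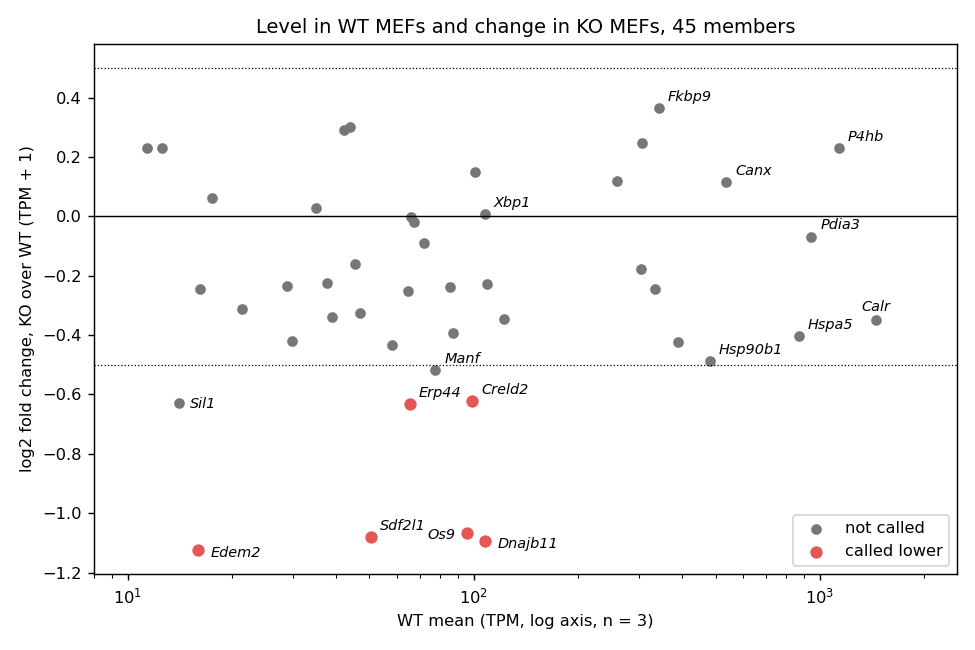
WT mean in TPM (log axis, n = 3) against the log2 fold change (KO relative to WT) of the 45 members. Dotted lines mark the fold change threshold of 0.5 in each direction; the 6 members called lower (red) have WT means between 15.96 and 107.6 TPM, and the abundant members on the right were not called.

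Related genes were compared within each sample, since a ratio of 2 genes does not depend on the scaling of that sample. The pairs were chosen after the fold changes were seen, and with 3 samples against 3 an exact permutation test cannot go below p = 0.10, so the ratios are given as a description. The Sdf2l1 to Sdf2 ratio was 0.787, 0.767 and 0.795 in WT and 0.437, 0.4205 and 0.437 in KO. The Dnajb11 to Hspa5 ratio was 0.126, 0.1201 and 0.125 in WT and 0.0811, 0.0729 and 0.0736 in KO. Both ratios were lower in every KO sample than in any WT sample.

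The ERAD pairs were wider apart. The Edem2 to Edem1 ratio was 0.229, 0.238 and 0.246 in WT and 0.106, 0.1099 and 0.0925 in KO, and the Os9 to Erlec1 ratio was 3.14, 2.99 and 3.21 in WT and 1.45, 1.55 and 1.51 in KO. The KO means of these ratios were 43.2% and 48.3% of the WT means. For the lectins, the Calr to Canx ratio went from a mean of 2.72 ± 0.107 (SD, n = 3) in WT to 1.97 ± 0.0424 in KO, without overlap. The Creld2 to Manf ratio overlapped between the groups, with means of 1.29 ± 0.16 and 1.19 ± 0.0573.

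The KO 3 sample had the lowest TPM of its group in 44 of the 45 members, and in 76.2% of all genes tested. In that sample 1 small RNA, Gm23935, took 25.6% of the total TPM, against 15.5% in KO 7 and 19.9% in KO 10. WT 8, where it took 24.3%, was lowest of its group in 32 members and in 62.1% of all genes tested. After median-of-ratios scaling (size factors from genes above 0 in all samples), KO 3 was lowest in 19 members (37.6% of all genes tested), and WT 4, lowest in 13 before (25.1% of all genes tested), was lowest of its group in 27 (41.3%). Under that scaling the median over all genes tested moved from -0.07 to 0.01 and that of the members from -0.24 to -0.15, with 16 members positive and 29 negative.

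The calls of Dnajb11, Sdf2l1, Edem2 and Os9 were made under all 14 alternative settings, including each of the 6 fits without 1 sample. Their limma adjusted p was at most 0.00383 (Edem2), and log2 fold changes ran from -1.22 to -0.98. Without KO 3, Hspa5 had a log2 fold change of -0.28. Hsp90b1, Hspa5 and Calr were called in none of the 14.

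**Figure D4:**
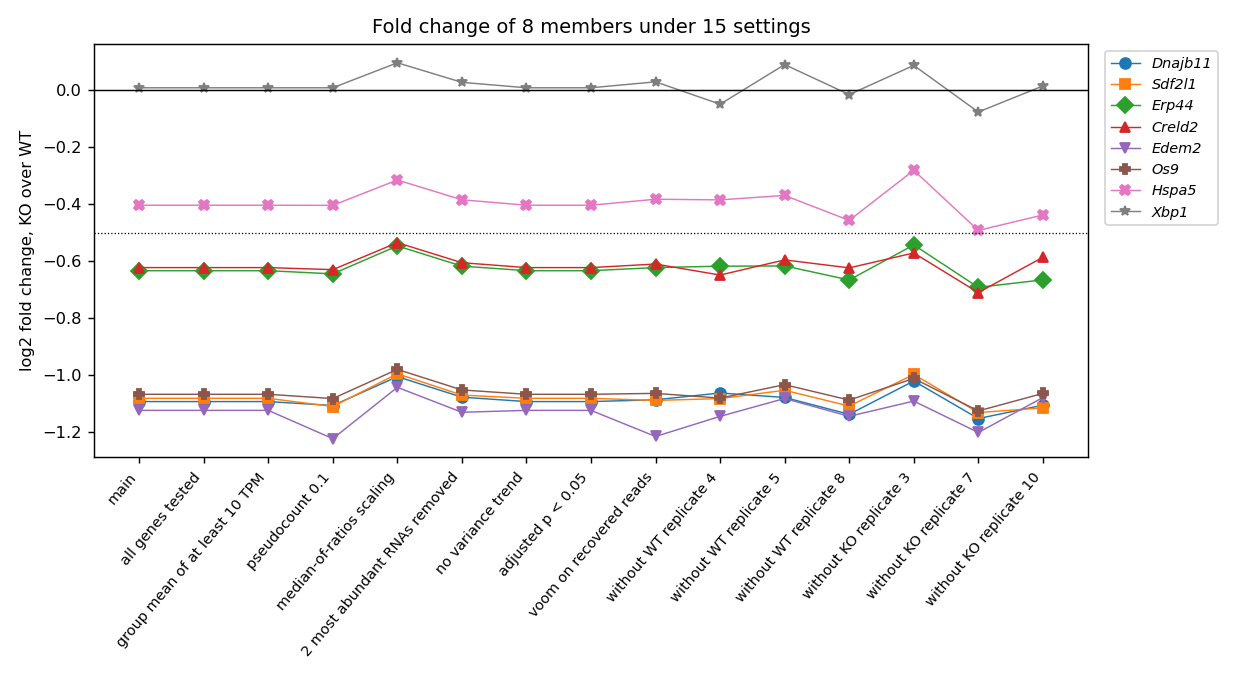
Log2 fold change of KO over WT (vertical axis) under the reported setting and 14 alternatives (horizontal axis) for the 6 members called lower, Hspa5 and Xbp1. The dotted line marks the threshold of -0.5; Dnajb11, Sdf2l1, Edem2 and Os9 stay between -1.22 and -0.98, while Xbp1 lies on both sides of 0.

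The promoters of the members were read for the elements through which ATF6 and XBP1 are known to act. RefSeq windows on build GRCm38.p6, from 250 bases before to 50 after each annotated start, were given for 37 of the 45. An ER stress response element (ERSE: CCAAT, any 9 bases, CCACG, on either strand) was present in 8 of the 37 members, or 21.6%, against 0.137% of 27025 genes. These were Hspa5, Hsp90b1, Dnajc3, Calr, Canx, Pdia6, Creld2 and Syvn1. ERSE-II (ATTGG, any 1 base, CCACG) was present in Dnajb11 and Herpud1, against 0.0444% of genes, and the XBP1 core ACGTG in 18 members (48.6%), against 21.8% of genes. No ERSE match overlapped an XBP1 core, whereas the ERSE-II match of Herpud1 shared bases with its core match.

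Of the 8 genes with an ERSE, only Creld2 was called, and their log2 fold changes ran from -0.62 to 0.29 (Syvn1). Of the 29 members with a window and no ERSE, 5 were lower. The median log2 fold changes were -0.40 and -0.24. Of the 18 with the XBP1 core, 3 were lower (Erp44, Edem2 and Os9), as were 3 of the 19 without it. Over all genes tested 9.03% were called lower, and these small subsets are given as counts only.

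The 250 bases before the start are shown, each on the strand of its gene, for 3 genes that hold the same element, of which only Creld2 was called. Hspa5 is at chr2:34771840-34772089 on the plus strand, Creld2 at chr15:88819396-88819645 on the plus strand and Syvn1 at chr19:6046326-6046575 on the plus strand. Capitals mark both ends of the ERSE, which in Creld2 lies on the opposite strand.
Hspa5: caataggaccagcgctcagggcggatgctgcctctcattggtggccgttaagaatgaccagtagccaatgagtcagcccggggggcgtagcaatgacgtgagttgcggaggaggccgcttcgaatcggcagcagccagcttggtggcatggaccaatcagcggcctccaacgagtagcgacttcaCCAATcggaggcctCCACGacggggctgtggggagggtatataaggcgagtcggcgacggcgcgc
Creld2: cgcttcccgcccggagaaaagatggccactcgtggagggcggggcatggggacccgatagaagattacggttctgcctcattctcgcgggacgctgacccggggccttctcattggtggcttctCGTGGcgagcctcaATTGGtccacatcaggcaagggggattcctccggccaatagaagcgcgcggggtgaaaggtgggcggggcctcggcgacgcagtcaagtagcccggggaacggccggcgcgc
Syvn1: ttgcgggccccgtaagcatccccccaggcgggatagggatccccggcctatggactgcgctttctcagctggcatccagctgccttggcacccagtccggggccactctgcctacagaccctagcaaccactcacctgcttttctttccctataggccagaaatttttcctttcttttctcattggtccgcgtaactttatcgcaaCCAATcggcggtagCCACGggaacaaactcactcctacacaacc

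The same stretch is shown for the 4 genes with the largest decreases, none of which holds an ERSE in this window. Dnajb11 is at chr16:22857595-22857844 on the plus strand, Sdf2l1 at chr16:17132384-17132633 on the minus strand, Edem2 at chr2:155729476-155729725 on the minus strand and Os9 at chr10:127121161-127121410 on the minus strand. Capitals mark the XBP1 core, which in Edem2 and Os9 lies on the opposite strand and which Dnajb11 and Sdf2l1 lack. The ERSE-II of Dnajb11 lies after the start, at positions 7 to 17, and is not shown.
Dnajb11: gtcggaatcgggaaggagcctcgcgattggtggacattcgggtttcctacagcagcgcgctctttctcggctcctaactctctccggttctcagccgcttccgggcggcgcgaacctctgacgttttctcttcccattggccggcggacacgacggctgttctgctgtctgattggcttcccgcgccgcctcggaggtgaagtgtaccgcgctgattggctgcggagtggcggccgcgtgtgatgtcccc
Sdf2l1: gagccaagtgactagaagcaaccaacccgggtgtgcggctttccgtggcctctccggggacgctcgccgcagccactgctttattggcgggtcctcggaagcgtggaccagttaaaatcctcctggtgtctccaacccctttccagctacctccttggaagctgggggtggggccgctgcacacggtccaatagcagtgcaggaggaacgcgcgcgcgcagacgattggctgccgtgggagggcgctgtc
Edem2: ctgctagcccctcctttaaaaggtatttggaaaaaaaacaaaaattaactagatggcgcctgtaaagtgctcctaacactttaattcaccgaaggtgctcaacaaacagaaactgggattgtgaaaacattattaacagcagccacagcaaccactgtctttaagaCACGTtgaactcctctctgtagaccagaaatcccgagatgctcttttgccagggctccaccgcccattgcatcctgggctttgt
Os9: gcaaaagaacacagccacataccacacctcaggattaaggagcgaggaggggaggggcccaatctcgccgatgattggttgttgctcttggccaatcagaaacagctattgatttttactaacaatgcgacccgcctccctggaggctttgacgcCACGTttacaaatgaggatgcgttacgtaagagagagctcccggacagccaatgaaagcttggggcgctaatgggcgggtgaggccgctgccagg

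A letter match is a description and no evidence of binding. The absence of a match says only that these letters are not in this window.

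Other genes of the pathway were taken from lists of related factors, to be read against 9.03% called lower, 1.64% called higher and a median log2 fold change of -0.07 over all genes tested. The lists were chosen with earlier results of these data known, so a distance from these shares is given as a description. Of 23 other folding factors tested, 5 were lower and 0 higher, with a median log2 fold change of -0.30; leaving out any 1 sample left 1 or 2 of the calls. They were the membrane thioredoxin Tmx2, the membrane-anchored prolyl isomerase Fkbp8, Cnpy3 and Cnpy4, which assist Toll-like receptor folding, and the HSP70 relative Hspa13. Tmx2 had the largest decrease, from a mean of 35.9 to 17.5 TPM (log2 fold change -0.99, limma adjusted p = 0.000502). Serpinh1 (HSP47), the collagen-specific chaperone, was abundant in both groups at 2094 and 2047 TPM, with overlap.

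Of 32 other degradation factors, 5 were lower and 0 higher, with a median of -0.03 (3 without WT 4 or WT 5, 2 without KO 3 or KO 10). Tmub1, a membrane-anchored ubiquitin-like protein, had means of 8.49 and 2.36 TPM (log2 fold change -1.50, limma adjusted p = 0.0004). The others were Svip, a VCP-binding inhibitor of ERAD (-1.01), Ubac2 (-0.75), the ligase Rnf5 (-0.74) and Erlin2 (-0.69), which escorts IP3 receptors to degradation. Vcp, the ATPase that extracts clients, had overlapping groups with a log2 fold change of 0.11. Selenos, a VCP partner in the membrane, was above WT in every KO sample at 0.32 (limma adjusted p = 0.0391).

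Of 14 other stress signalling genes, 1 was lower, Atf6b, a relative of Atf6, with means of 56.5 ± 2.84 and 39.2 ± 2.83 TPM (log2 fold change -0.51, limma adjusted p = 0.00485). Its call was lost without WT 4, WT 5, WT 8, KO 3 or KO 7. Of 23 genes of the translocon and signal peptide handling, 2 were lower, the signal peptidase subunits Spcs3 (-0.87) and Sec11c (-0.98), with 1 call left without WT 5, KO 3 or KO 7. Of 11 ER-phagy genes, Calcoco1 was lower (-0.64), a call lost without any 1 of the 6 samples.

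The 11 genes of the integrated stress response, a separate arm that shares the ER sensor PERK, had 0 calls by limma and 5 at an unadjusted p under 0.05, all higher, where 12.2% of all genes tested were higher at that p. Of the 11, 10 had positive log2 fold changes (42.6% of all genes tested were positive), with a median of 0.40. WT 4 was the lowest WT sample in 8 of the 11, and without it the median was 0.27, by a check added after the data were seen. Ddit3 (CHOP) read 17.4, 31.8 and 24.4 TPM in WT MEFs, compared with 36.3, 50.9 and 41.7 TPM in KO MEFs (log2 fold change 0.81, limma adjusted p = 0.0155). Every KO sample was above every WT sample, while in the same samples Hspa5 was below, and neither gene was called. Ddit3 had the most positive value of the 11 and was named after the values were seen. Groups overlapped in 6 of the 11, Atf4 among them (log2 fold change 0.15). In the other 5 every KO sample was above, as in 13.3% of all genes tested.

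**Figure D5:**
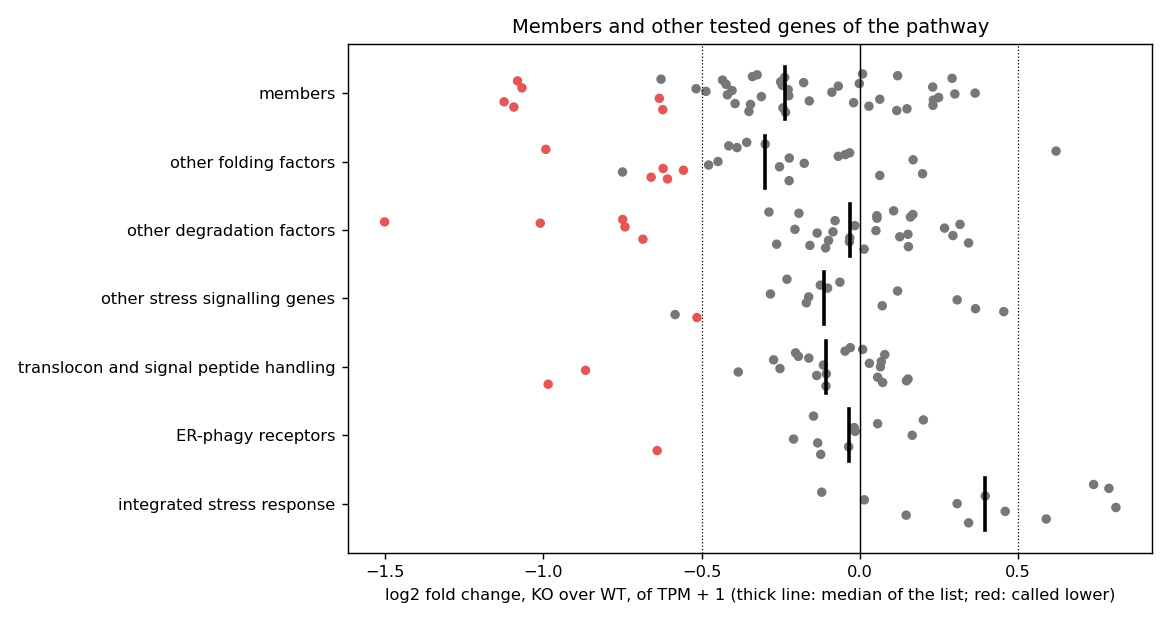
Change in KO relative to WT (log2, TPM + 1) of the 45 members and of the tested genes in 6 related lists (vertical axis). Points are genes, red marks those called lower, thick lines are medians and dotted lines mark 0.5 in each direction; red points lie in every list except the integrated stress response, whose median is 0.40.

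Of the 45 members, 16 share exonic bases with another annotated gene, and the library kit named in the methods does not mark strand, so reads of an antisense neighbour cannot be told apart. Hsp90b1, Manf, Sil1, Sdf2, Syvn1 and Ppib are among the 16, and none of the 6 genes called lower is.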

How the data were processed

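Expression was taken from 1 table of 26898 genes by 6 samples, which the authors deposited as TPM; each value is a read count divided by gene length and scaled to a fixed sum per sample. Columns with the authors' own log2 fold change and adjusted p-value per gene were left unused. The study's methods name STAR and the build mm10, whereas the submitters' processing notes name Bowtie 0.12.2 and mm10; the counting program was not given in the sources used here. Gene positions and exon lengths came from GENCODE M21 (26876 identifiers matched). TPM times exon length, divided by 1 step per sample estimated from the low values, gave whole reads for 100% of the values checked at a tolerance of 0.05, and these reads served for depth and for 1 alternative (voom).

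Groups were taken from sample titles (3 WT, 3 KO). KO was compared with WT on log2(TPM + 1) values, with limma 3.58.1 (R 4.3.3), a trended prior variance and no covariate, over the 14799 genes with a group mean of at least 1 TPM. This scale understates changes of low genes. P-values were adjusted by Benjamini-Hochberg over all genes tested, and calls used the study's thresholds (adjusted p below 0.005, log2 fold change beyond 0.5). The script was tested on simulated data; a first simulation, with an arbitrary dispersion and changed genes at any level, recovered fewer changed genes than the one kept, which used the dispersion of these samples and changed only better expressed genes. Values per sample are given for every member called, for the most abundant member of each role and for Hspa5, Xbp1, Atf6, Ern1, Sel1l and Kansl1; of other lists, genes called and Serpinh1 are named, and other genes were named after their values were seen. The members and lists were chosen with earlier results of these data known. Markers of endothelial, epithelial, neural and erythroid cells were summed too: KO samples ranged from 3.13 to 4.70, 80.7 to 95.3, 213.8 to 269 and 0 to 0.149 TPM, against 2.23 to 5.57, 65.5 to 72.2, 183.9 to 235.5 and 0 to 0.0668 TPM in WT. Alternatives were 2 expression filters, a pseudocount of 0.1, 2 scalings, no variance trend, an adjusted p of 0.05, voom and leaving out each sample.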

Additional observations from a re-analysis of the deposited data

How the results depend on the processing

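No paired analysis was possible because the groups share no replicate number (WT 4, 5 and 8; KO 3, 7 and 10). The calls of Dnajb11, Sdf2l1, Edem2 and Os9 held under every alternative run. Members called lower numbered between 4 and 8, and 0 were higher in any. The share of all genes called lower ran from 1.06% with all genes tested (4 members) to 16.6% at an adjusted p of 0.05 (8 members), and was 4.16% without WT 5 (4 members), so the distance of the members from the background depends on the setting. Erp44 and Creld2 lost their calls when all genes of the table were tested (limma adjusted p = 0.00941 and 0.00897) and without the variance trend (0.00749 and 0.00762). Sil1 and Manf, which were not called, passed with a filter of 10 TPM, without the 2 most abundant RNAs, at an adjusted p of 0.05 and with voom, and Sil1 also under median-of-ratios scaling. Log2 fold changes near 0 changed sign. With median-of-ratios scaling Pdia3, Ppib and Edem1 were at 0.0204, 0.0856 and 0.0676, and Ppib was at 0.0173 without the 2 most abundant RNAs and at 0.0186 with voom. Without 1 sample, Dnajb9 ranged from -0.0454 to 0.1096, Ppib from -0.0508 to 0.0729, Edem1 from -0.0667 to 0.0388, Herpud1 from -0.2221 to 0.0677 and Xbp1 from -0.0765 to 0.0899.

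Over all genes the count of calls, 1579, became 341 with all 26898 genes tested, 3147 at an adjusted p of 0.05 and 2582 with voom, and ranged from 758 to 1081 without 1 sample. With all genes tested, other folding factors called fell from 5 to 1, other degradation factors from 5 to 1, and the stress signalling, translocon and ER-phagy lists to 0. With the 10 TPM filter the degradation, stress signalling and translocon counts were 3, 2 and 1. Without the variance trend the folding, stress signalling, translocon and ER-phagy counts were 3, 0, 1 and 0. The stress signalling count was 0 with a pseudocount of 0.1 and without the 2 most abundant RNAs, and 2 at an adjusted p of 0.05. Without 1 sample the counts ranged from 1 to 2 (folding), 2 to 4 (degradation), 0 to 1 (stress signalling), 1 to 2 (translocon) and 0 in every case (ER-phagy). Fewer samples leave fewer degrees of freedom and more genes tested raise the adjusted p; other causes were not tested. The standard errors of the members ran from 0.10 to 0.17 on the log2 scale.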
